A study of Sus scrofa with 15 samples.

Results

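BHLHE40 and CLOCK encode 2 transcription factors of the circadian clock, and their mRNA levels were followed here in pig kidney cells transfected with wild-type or mutant human PKD2. They are 2 of the 16660 genes in the count table and 2 of the 11553 genes tested. Both were chosen with their differences from the empty-plasmid control already known, so those differences are described here, and their calls are given without being read as evidence. CLOCK (ENSSSCG00000008909) belongs to the activating arm of the clock and BHLHE40 (ENSSSCG00000036136) to the repressing arm.

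In the molecular clock, CLOCK pairs with ARNTL, also called BMAL1, and the dimer binds E-box elements to switch on the PER and CRY genes, whose products then block the dimer. BHLHE40, also known as DEC1, is itself switched on by this dimer and represses transcription from E-boxes. BHLHE40 is in addition a widely inducible gene that responds to serum, growth factors and low oxygen. In the kidney, clock genes set daily rhythms in the transport of sodium and other solutes by the tubule.

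The libraries came from LLC-PK1 cells, an established epithelial line from the pig renal proximal tubule, with 3 libraries for each of 5 plasmids. NC was the plasmid with no PKD2 gene, and WT carried wild-type human PKD2. Tg1 carried the p.D511V mutation (c.A1532T), Tg2 the p.L656W mutation (c.T1967G) and Tg3 the p.R742X mutation (c.C2224T), which introduces a stop codon and removes the C-terminal tail of the protein. The plasmid is written FLAG-floxP-neo-pH11 in the sample labels, and the methods describe a CAG promoter that drives the transgene. All 5 groups received 3 µg of plasmid by transient transfection and were harvested at a single time, 48 h later, so no rhythm of either gene over the day was measured.

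Each group was a set of wells of the same cell line transfected with the same plasmid. The p-values therefore measure the spread between wells, not between independent cell lines or animals. The libraries held 20216200 to 26132196 counts each. BHLHE40 received 2576 to 4157 counts per library and CLOCK 1736 to 2529. Counting alone would give a coefficient of variation of 1.71% for BHLHE40 and 2.21% for CLOCK, against a fitted variation between wells of 7.85% and 3.72%. WT replicate 2 stood farthest apart from the libraries of its group. Its chi-square per degree of freedom against WT replicate 3 was 42.1 and against WT replicate 1 it was 23.5, whereas replicates 1 and 3 gave 5.38. By the same measure Tg2 replicate 3 (18.9 and 11.3, against 4.2 for the other pair), NC replicate 2 (8.18 and 14.9, against 3.66) and Tg1 replicate 1 (9.61 and 12.3, against 3.14) also stood apart within their groups. So did Tg3 replicate 2 (5.73 and 9.56, against 2.78). The values of BHLHE40 and CLOCK that rest on WT are given with and without WT replicate 2. Transcripts of the transgene and of pig PKD2 were not analysed here. In the paper, a Western blot against the FLAG tag showed the WT, Tg1 and Tg2 proteins. The Tg3 protein lacks the tag and could not be seen that way. By qRT-PCR the paper reports high human PKD2 mRNA relative to NC.

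The cell type was checked against marker genes. Of 16 markers of proximal tubule epithelium, 15 were matched and all 15 passed the expression filter, with a summed level of 4622 to 4974 CPM (counts per 1000000 counts of the normalized library size) in the 15 libraries. KRT8, a keratin of simple epithelia, was the most abundant at 2301 CPM. Markers of other cell types were low, with sums of 1.10 to 2.09 CPM for endothelium (4 of 5 matched, led by PECAM1 at 1.07 CPM), 13.3 to 29.1 CPM for collecting duct (3 of 4 matched, led by SCNN1G at 9.43 CPM) and 22.2 to 26.6 CPM for leukocytes (5 of 5 matched). CD3E alone made 20.6 CPM of the leukocyte sum, with PTPRC at 0.0167 CPM. The fibroblast list summed to 851 to 1025 CPM (4 of 5 matched), of which COL1A2 alone made 923 CPM, while COL1A1 was at 0.842 CPM and PDGFRB at 0.0148 CPM. In such bulk libraries, fewer cells of a type and less RNA per cell cannot be told apart.

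BHLHE40 was lowest in the cells with the empty plasmid. Its level, in CPM after TMM normalization, was 114.5, 134.8 and 126.6 CPM in the 3 NC libraries, a mean of 125 ± 10.2 CPM (SD, n = 3). In WT it was 169.6, 146.5 and 175.5 CPM (164 ± 15.3 CPM, SD, n = 3), with the lowest value in replicate 2. None of the WT libraries reached down to the NC range.

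In Tg1, the BHLHE40 level was 135.3, 163.8 and 163.4 CPM (154 ± 16.3 CPM, SD, n = 3). Tg1 replicate 1 stood well below its other replicates and only just above the highest NC library. In Tg2 the BHLHE40 level was 159.2, 174.5 and 155.9 CPM (163 ± 9.94 CPM, SD, n = 3), and all of these were above NC. In Tg3 it was 147.9, 130.2 and 138.8 CPM (139 ± 8.86 CPM, SD, n = 3), and the lowest Tg3 library fell inside the NC range. The order of the means was NC, Tg3, Tg1, Tg2 and WT from low to high, and the libraries of each neighbouring pair in this order overlapped.

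CLOCK was highest in NC, where BHLHE40 was lowest. The CLOCK level was 101.1, 94.98 and 97.51 CPM in the NC libraries (97.9 ± 3.06 CPM, SD, n = 3). It was 90.08, 86.97 and 87.32 CPM in WT (88.1 ± 1.71 CPM, SD, n = 3). No WT library reached the lowest NC value.

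The lowest CLOCK level was that of Tg1, at 78.88, 80.37 and 80.74 CPM (80 ± 0.982 CPM, SD, n = 3). These replicates were the closest to each other of any group for this gene. In Tg2, CLOCK was at 88.58, 81.21 and 88.04 CPM (85.9 ± 4.11 CPM, SD, n = 3), with replicate 2 near the Tg1 libraries and the others near WT. In Tg3 it was at 94.46, 91.76 and 95.77 CPM (94.0 ± 2.05 CPM, SD, n = 3), which overlapped NC. From high to low the means ran NC, Tg3, WT, Tg2 and Tg1. In that order, NC and Tg3 overlapped, as did WT and Tg2, while Tg3 and WT, and Tg2 and Tg1, did not.

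**Figure D1:**
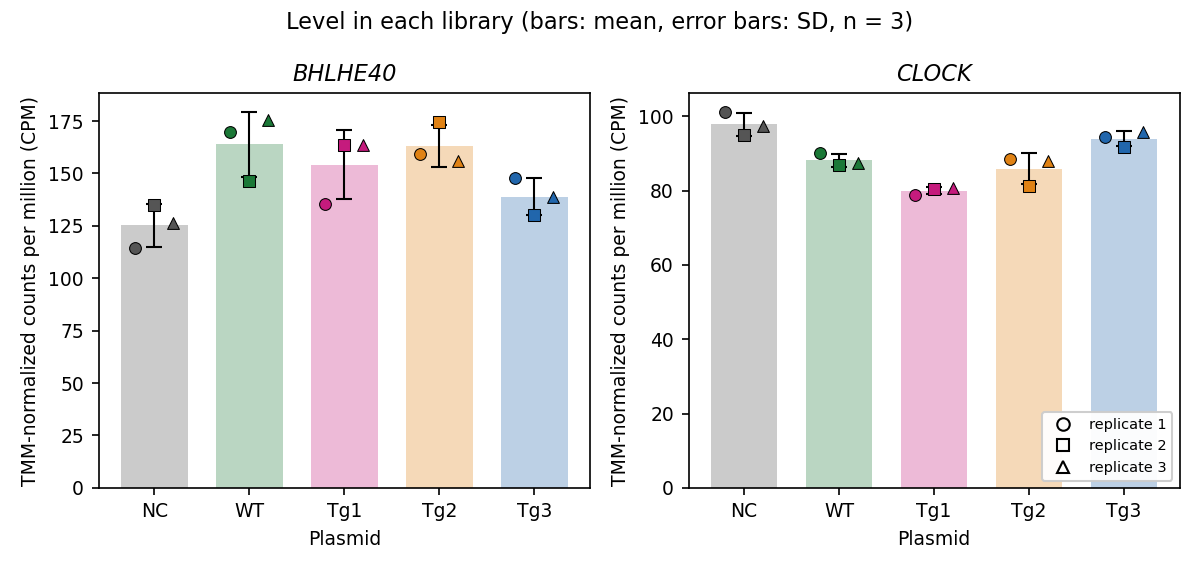
Level of BHLHE40 (left) and CLOCK (right) in CPM after TMM normalization for each plasmid, with bars for the mean, error bars for the SD (n = 3) and a symbol for each replicate. BHLHE40 was lowest in NC at 125 CPM and CLOCK was highest there at 97.9 CPM, and for both genes Tg3 was the group nearest to NC.

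Relative to NC, the BHLHE40 log2 fold change was 0.39 in WT (95% interval 0.20 to 0.58), 0.30 in Tg1 (0.11 to 0.49) and 0.38 in Tg2 (0.19 to 0.57), each with a standard error of 0.09. These are levels 1.31, 1.23 and 1.30 times that of NC. In Tg3 the log2 fold change was 0.15 (-0.04 to 0.34), or 1.11 times NC. These 4 comparisons share the same NC libraries. BHLHE40 was chosen from them, and the intervals allow neither for that choice nor for the number of genes tested. Without NC replicate 1, the lowest NC library, the BHLHE40 log2 fold change was 0.33 (WT), 0.24 (Tg1), 0.32 (Tg2) and 0.09 (Tg3).

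The CLOCK log2 fold change against NC was -0.15 in WT (95% interval -0.24 to -0.07), -0.29 in Tg1 (-0.38 to -0.21), -0.19 in Tg2 (-0.27 to -0.10) and -0.06 in Tg3 (-0.14 to 0.03), each with a standard error of 0.04. The CLOCK level was thus 0.90, 0.82, 0.88 and 0.96 times that of NC. Leaving out any single library moved the Tg1 value between -0.31 and -0.27, and that of Tg3 between -0.08 and -0.03, the latter without NC replicate 1. Without WT replicate 2 the WT value was -0.14. CLOCK was also chosen from these comparisons, and its intervals do not allow for that choice.

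A differentially expressed gene (DEG) had to reach an adjusted p-value of at most 0.05, with a log2 fold change of at least 0.26 in either direction, in edgeR's quasi-likelihood test over all 11553 genes. By this definition, which applies to the contrasts the 2 genes were chosen from, BHLHE40 was a DEG against NC in Tg2 and CLOCK in Tg1. CLOCK also met the adjusted p-value in Tg2 and was there under the fold-change threshold. Over the fits that left out 1 library, its log2 fold change in Tg2 was between -0.21 and -0.15, and the adjusted p-value was not met in all of them. The share of all genes that were DEGs was 0.00% (WT), 1.19% (Tg1), 8.43% (Tg2) and 0.00% (Tg3). In the direction of the gene concerned, 1.01% of genes were lower DEGs in Tg1 and 4.73% were higher DEGs in Tg2. At an unadjusted p-value under 0.05, edgeR gave 524 genes for WT and 2089 for Tg3, and DESeq2 called 10 and 45 DEGs. In each of WT, Tg1 and Tg2, neither gene overlapped NC, which held for 8.42%, 26.7% and 35.5% of all genes, and in Tg3 both genes overlapped NC, where 27.3% of genes did not. The 2 genes were chosen from these contrasts, and nothing further is read from the counts.

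The label of BHLHE40 as a DEG changed with the libraries used. It was a DEG in Tg2 in 11 of the 15 fits that left out 1 library, and was lost without NC replicate 1, NC replicate 3, Tg2 replicate 1 or Tg2 replicate 2, with log2 fold changes of 0.32 to 0.40 in those 4 fits, in which 24, 0, 48 and 0 of all 11553 genes were DEGs in Tg2 against 974 with all libraries. Without Tg2 replicate 3 it was a DEG in Tg2 at 0.41, with 1878 DEGs over all genes. Without WT replicate 2 it became a DEG also in WT, at a log2 fold change of 0.46, and in Tg1, at 0.30, where 0.216% and 2.21% of all genes were DEGs. With DESeq2 in place of edgeR, BHLHE40 met the thresholds in WT and Tg1 as well as in Tg2. DEGs were then 0.0866% of all genes in WT and 2.10% in Tg1. BHLHE40 was chosen from these contrasts, which the authors had tested with DESeq2 on the same libraries. The calls in these fits are therefore a description and are not read as evidence.

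The next question was whether the level of either gene differed between the PKD2 genotypes. The libraries of WT and the mutants also entered the choice of the 2 genes, although these contrasts themselves did not. For BHLHE40, no pair of genotypes passed the test. The log2 fold change against WT was -0.09 for Tg1 (95% interval -0.28 to 0.10, adjusted p = 0.631 from edgeR) and -0.01 for Tg2 (-0.19 to 0.18, adjusted p = 0.971 from edgeR). For Tg3 against WT it was -0.24 (-0.43 to -0.05, adjusted p = 0.187 from edgeR). Between the mutants it was -0.08 for Tg1 against Tg2 (-0.27 to 0.11, adjusted p = 0.604 from edgeR) and 0.15 for Tg1 against Tg3 (-0.04 to 0.34, adjusted p = 0.438 from edgeR), the latter moving to 0.24 without Tg1 replicate 1. For Tg2 against Tg3 it was 0.23 (0.04 to 0.42, adjusted p = 0.822 from edgeR), with all 3 Tg2 libraries above all 3 Tg3 libraries, a separation seen in 11.5% of all genes.

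The comparison of BHLHE40 between Tg3 and WT depended on WT replicate 2, the WT library with the lowest BHLHE40 level. Without it, BHLHE40 was a DEG, with a log2 fold change of -0.31 in Tg3 relative to WT (adjusted p = 0.028 from edgeR). However, 11.4% of all genes were then DEGs in this comparison, against 0.00% with all libraries, where edgeR gave 2215 genes at p under 0.05 before adjustment and DESeq2 called 108 DEGs. Without that library the BHLHE40 log2 fold change was -0.16 for Tg1 and -0.08 for Tg2 relative to WT, and neither passed (adjusted p = 0.219 and 0.504 from edgeR). Without Tg1 replicate 1, the BHLHE40 value for Tg1 relative to WT was -0.00.

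For CLOCK, Tg1 was lower than Tg3 by the adjusted p-value, with a log2 fold change of -0.23 (95% interval -0.32 to -0.15, adjusted p = 0.018 from edgeR). The CLOCK level of Tg1 was 0.85 times that of Tg3, and every Tg1 library lay below every Tg3 library, as for 24.9% of all genes. This size is under the 0.26 threshold, so CLOCK was not among the 0.615% of genes that were DEGs between Tg1 and Tg3. Over the fits that left out 1 library, the CLOCK log2 fold change was between -0.25 and -0.22 and the adjusted p-value from edgeR between 0.0139 and 0.109.

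The other contrasts of CLOCK did not pass. Relative to WT, the log2 fold change was -0.14 in Tg1 (95% interval -0.23 to -0.05, adjusted p = 0.151 from edgeR), -0.04 in Tg2 (-0.12 to 0.05, adjusted p = 0.548) and 0.09 in Tg3 (0.01 to 0.18, adjusted p = 0.232). Without WT replicate 2 these 3 values were -0.15 (adjusted p = 0.0502 from edgeR), -0.05 and 0.08. The CLOCK log2 fold change was -0.10 for Tg1 against Tg2 (-0.19 to -0.02, adjusted p = 0.185 from edgeR) and -0.13 for Tg2 against Tg3 (-0.22 to -0.04, adjusted p = 0.822 from edgeR). CLOCK libraries did not overlap between Tg1 and WT, Tg3 and WT, Tg1 and Tg2, or Tg2 and Tg3, which held for 16.9%, 20.5%, 23.2% and 11.5% of all genes. Tg2 and WT overlapped for both genes, where 24.4% of genes did not. With 3 libraries against 3, a two-sided exact permutation test on a single gene cannot give a p-value below 0.1.

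For reference, 0.0692% of all genes were DEGs between Tg1 and WT, 5.92% between Tg2 and WT, 0.138% between Tg1 and Tg2 and 0.00% between Tg2 and Tg3, where edgeR gave 673 genes at p under 0.05 before adjustment and DESeq2 called 0.

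**Figure D2:**
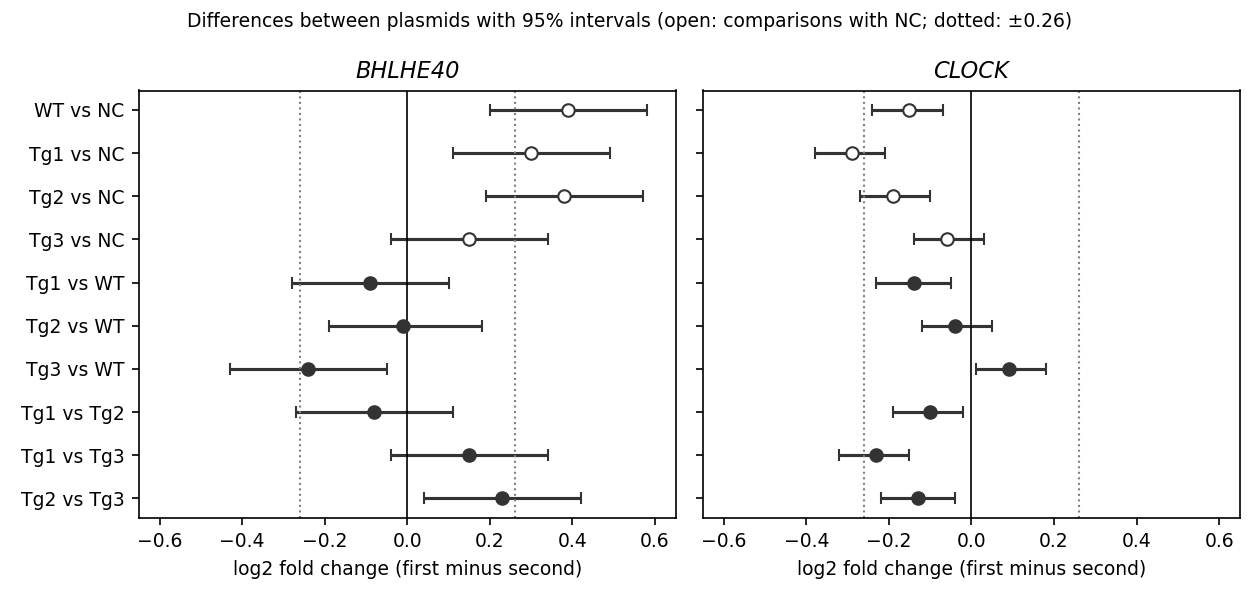
Log2 fold change of BHLHE40 (left) and CLOCK (right) in each pairwise comparison of the 5 plasmids, first group relative to the second, with 95% intervals from the edgeR fit; open circles are comparisons with NC and dotted lines mark the fold-change threshold of 0.26 in either direction. For CLOCK the interval of Tg1 against Tg3 runs from -0.32 to -0.15, and for BHLHE40 the interval of Tg2 against WT runs from -0.19 to 0.18.

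In edgeR, none of the measured partners of CLOCK was a DEG against NC in any genotype with all libraries. NPAS2, its closest relative and able to replace it in the dimer, had log2 fold changes against NC of 0.06 (WT), 0.08 (Tg1), -0.01 (Tg2) and -0.08 (Tg3). ARNTL, the usual partner of CLOCK, was at 0.10, -0.06, -0.17 and -0.12 in the same order. ARNTL2, the second partner, was at 0.02, -0.04, 0.26 and 0.30, and in the mutants Tg2 and Tg3 every ARNTL2 library lay above NC (35.5% and 27.3% of all genes did not overlap NC in these comparisons) without passing the test (adjusted p = 0.0628 and 0.164 from edgeR). In Tg2 it was a DEG with DESeq2 (adjusted p = 0.0417), in an edgeR fit of only NC and Tg2 (adjusted p = 0.0478), when replicate numbers were blocked (edgeR adjusted p = 0.0277) and in 4 of the 15 edgeR fits that left out 1 library, namely NC replicate 2, WT replicate 2, WT replicate 3 or Tg1 replicate 1.

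BHLHE41, or DEC2, is the closest relative of BHLHE40 and also a repressor at E-boxes. Its log2 fold change against NC was 0.01 (WT), 0.01 (Tg1), 0.10 (Tg2) and 0.04 (Tg3), and none of these was a DEG. The BHLHE41 level ran from 141.2 to 149.0 CPM in NC and from 152.6 to 156.7 CPM in Tg2 (adjusted p = 0.0854 from edgeR). Among the classical repressors, PER1 was at log2 fold changes of 0.21, -0.10, -0.20 and -0.15 in WT, Tg1, Tg2 and Tg3, and PER2 at 0.04, -0.29, -0.24 and -0.38, the latter at a level of only 1.71 to 2.71 CPM. CRY1 was at -0.12, 0.06, 0.13 and -0.04, CRY2 at 0.01, -0.11, -0.12 and -0.12, and CIART, a repressor that acts on the CLOCK dimer, at 0.14, -0.03, -0.12 and -0.19. None of BHLHE41, PER1, PER2, CRY1, CRY2 and CIART was a DEG against NC. BHLHE40 is left out of this count because it was chosen with its difference from NC already known.

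In the nuclear receptor loop, which sets the rhythm of ARNTL, NR1D1 was at log2 fold changes of 0.09, 0.03, -0.05 and -0.06 and NR1D2 at 0.03, -0.17, -0.04 and -0.04 in WT, Tg1, Tg2 and Tg3. RORA was at -0.12, -0.10, 0.13 and -0.05 in the same order. None of these was a DEG. Of the PAR bZIP factors, which carry clock output, DBP was at -0.12, -0.18, -0.46 and -0.16, TEF at 0.17, 0.16, 0.07 and 0.23 and HLF at -0.25, -0.13, -0.37 and -0.26, again with no DEG when all libraries were used. Without Tg2 replicate 3, DBP and HLF were both DEGs in Tg2, at -0.77 (adjusted p = 0.0237 from edgeR) and -0.66 (adjusted p = 0.0165 from edgeR). The other fits without 1 library gave no call for either, with values up to -0.30 for DBP without Tg2 replicate 2 and -0.17 for HLF without Tg2 replicate 1.

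NFIL3, a repressor that competes with the PAR bZIP factors, was the clock gene that most resembled BHLHE40. It rose in Tg2, from 82.5 ± 9.51 CPM in NC to 107 ± 7.24 CPM (SD, n = 3 each), which is 0.37 on the log2 scale with a standard error of 0.09 (adjusted p = 0.0265 from edgeR). In WT, Tg1 and Tg3 its log2 fold change was 0.29, 0.33 and 0.25 without passing (adjusted p = 0.795, 0.0756 and 0.209 from edgeR). In Tg1, NFIL3 was a DEG with DESeq2 (adjusted p = 0.0279) and when replicate numbers were blocked (edgeR adjusted p = 0.042). It was also a DEG in Tg1 without NC replicate 2 (0.43, edgeR adjusted p = 0.048) and without Tg1 replicate 1 (0.44, edgeR adjusted p = 0.0317). The adjusted p-value for Tg2 was between 0.0144 and 0.116 when single libraries were left out.

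CIPC and PRKAA2, which code for proteins that act on clock proteins, were the other clock DEGs, and both fell in Tg2. CIPC, an inhibitor that binds CLOCK, fell from 60.1 ± 6.25 CPM in NC to 48.7 ± 5.40 CPM (SD, n = 3 each), which is -0.30 on the log2 scale with a standard error of 0.10 (adjusted p = 0.0487 from edgeR). CIPC was a DEG in only 5 of the 15 fits that left out 1 library, at log2 fold changes of -0.40 to -0.22 over all 15 (adjusted p up to 0.2 from edgeR). It also did not pass with no filter, with edgeR's filterByExpr filter and in a fit of only NC and Tg2 (adjusted p = 0.0555, 0.0524 and 0.0625 from edgeR). PRKAA2, a catalytic subunit of AMPK, which marks CRY proteins for degradation, fell from 32.7 ± 1.39 CPM to 26.3 ± 3.43 CPM (SD, n = 3 each), which is -0.31 on the log2 scale with a standard error of 0.08 (adjusted p = 0.0254 from edgeR). PRKAA2 was a DEG in 11 of the 15 fits that left out 1 library and did not pass in a fit of only NC and Tg2 (adjusted p = 0.0533 from edgeR).

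Apart from BHLHE40 and CLOCK, the clock lists held 39 genes, of which 37 were matched to the count table and 36 passed the filter on low counts. RORB was matched but fell under the filter. Against NC, 0 of the 36 were DEGs in WT, 0 in Tg1 and 0 in Tg3. At an unadjusted p-value under 0.05, edgeR gave 1, 7 and 7 of them, beside 524, 2304 and 2089 of all 11553 genes, and DESeq2 called 0 DEGs in WT, 1 in Tg1 and 0 in Tg3. In Tg2, 1 rose and 2 fell, which is 8.33% of the list beside 8.43% of all genes. These 3 calls were lost without NC replicate 1, NC replicate 3, Tg2 replicate 1 or Tg2 replicate 2. In those 4 fits edgeR called 24, 0, 48 and 0 DEGs in Tg2 among all genes, against 974 with all libraries. The list held 5 DEGs in Tg2 without WT replicate 2 and 7 without Tg2 replicate 3. The list had a median log2 fold change of 0.01, -0.04, -0.04 and -0.05 in WT, Tg1, Tg2 and Tg3, and that of all genes was between -0.01 and 0.00. The number of the 36 that were above NC was 20 (WT), 14 (Tg1), 16 (Tg2) and 14 (Tg3).

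**Figure D3:**
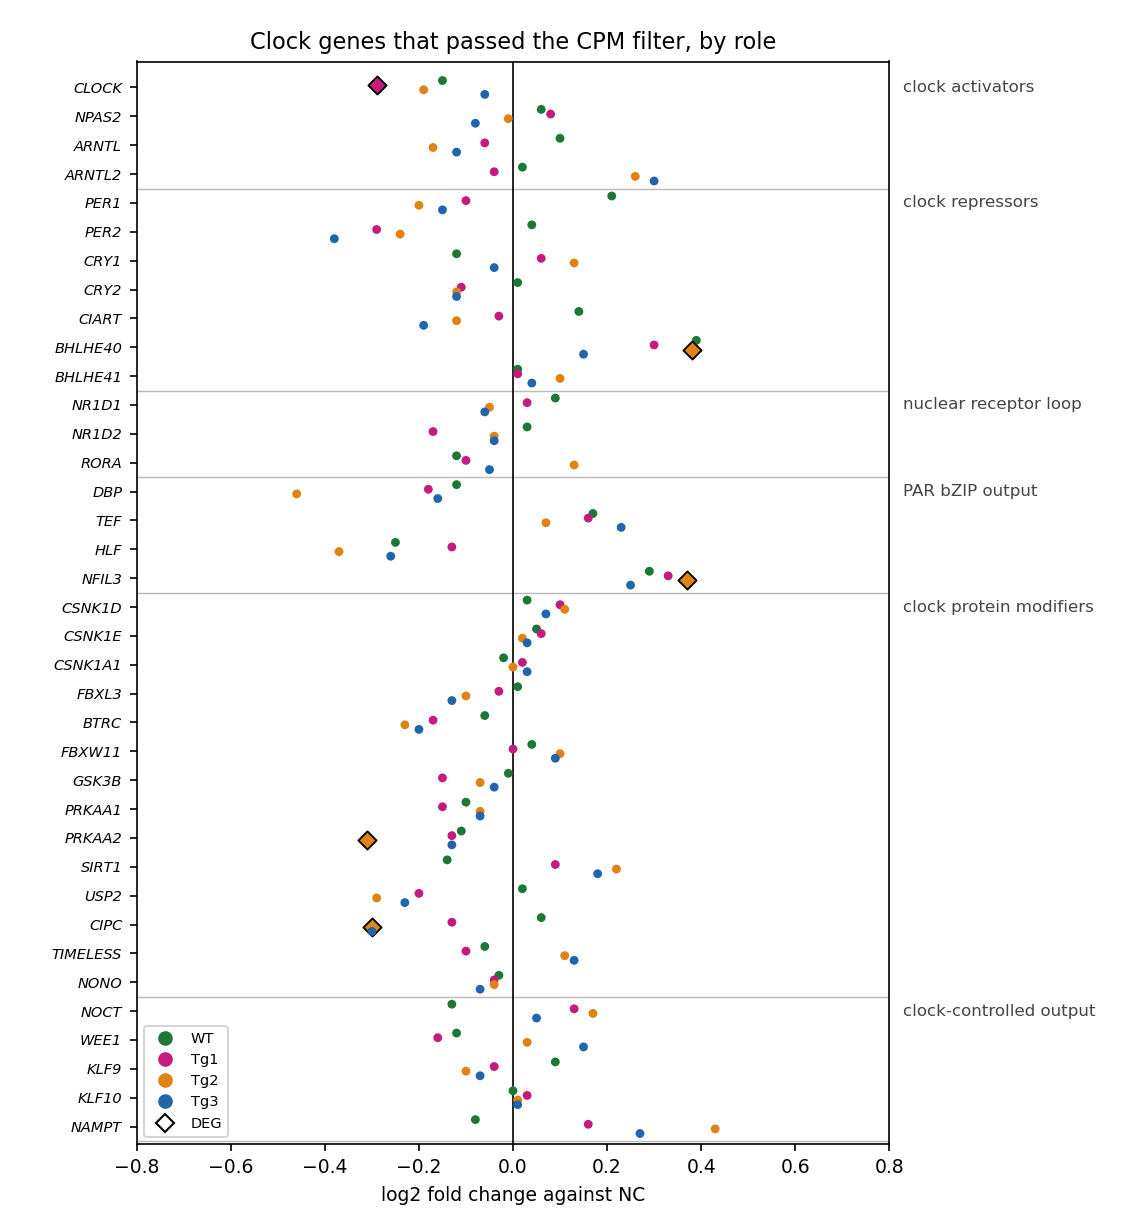
Log2 fold change against NC of 37 of the 38 clock genes that passed the expression filter, grouped by role, with 1 symbol for each genotype and diamonds for DEGs. Most genes lie close to 0 in all 4 genotypes, and the DEGs are CLOCK in Tg1 and BHLHE40, NFIL3, PRKAA2 and CIPC in Tg2. CLOCK and BHLHE40 were chosen with their differences from NC already known.

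The wider protein families were counted in the same way, beside the shares of all genes given above (1.19% in Tg1 and 8.43% in Tg2). BHLHE40 belongs to the bHLH-Orange repressors, and of its 10 relatives 4 passed the filter (BHLHE41, HES1, HES4 and HES6), with 0 DEGs against NC in each genotype and medians of -0.02, 0.02, 0.10 and 0.02 in WT, Tg1, Tg2 and Tg3. HES4 was at 0.75 in Tg2 with a standard error of 0.30 (adjusted p = 0.0939 from edgeR). It was a DEG in Tg2 in an edgeR fit of only NC and Tg2 (adjusted p = 0.0328) and when replicate numbers were blocked (edgeR adjusted p = 0.0311). Without WT replicate 2 it was a DEG in Tg2 as well (edgeR adjusted p = 0.0157). CLOCK belongs to the bHLH-PAS family, of which 12 of 18 relatives passed the filter. These also gave 0 DEGs against NC in each genotype, with medians of 0.02, -0.05, 0.01 and 0.02. DESeq2 called 0 DEGs in the bHLH-Orange family in each genotype and 2 in the bHLH-PAS family in Tg2, namely ARNTL2 and NCOA1. At an unadjusted p-value under 0.05, edgeR gave 0, 0, 2 and 0 genes of the bHLH-Orange family and 1, 4, 6 and 2 of the bHLH-PAS family in WT, Tg1, Tg2 and Tg3, beside 524, 2304, 4069 and 2089 of all 11553 genes.

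BHLHE40 is often counted among genes induced by hypoxia-inducible factors, so a list of 14 such genes was followed beside it. Of these, 11 were matched and 10 passed the filter. In Tg2, 5 of the 10 rose (ADM, HK2, PDK1, PLOD2 and LDHA) and 0 fell, beside 4.73% of all genes that were higher DEGs. ADM, the secreted peptide adrenomedullin, rose by 0.72 on the log2 scale in Tg2 (adjusted p = 0.00865 from edgeR, standard error 0.09), and HK2, the first enzyme of glycolysis, by 0.67 (adjusted p = 0.0117 from edgeR, standard error 0.11). In Tg1, 1 of the 10 rose, ADM, by 0.53, beside 0.182% of all genes that were higher DEGs. In WT and Tg3 edgeR called 0 of the 10. ADM was at 0.35 in WT and 0.37 in Tg3 without passing (adjusted p = 0.608 and 0.144 from edgeR). Its libraries did not overlap NC in either, as for 8.42% and 27.3% of all genes. The paper reports ADM as upregulated in every genotype, by DESeq2 and by qRT-PCR. Before adjustment p was under 0.05 for 3, 3, 9 and 2 of the 10 in WT, Tg1, Tg2 and Tg3, beside 524, 2304, 4069 and 2089 of all genes, and 10, 8, 10 and 9 of the 10 were above NC. DESeq2 called 0 in WT and 1, ADM, in Tg3. The 5 calls in Tg2 fell to 1 without NC replicate 1, to 2 without Tg2 replicate 1 and to 0 without NC replicate 3 or Tg2 replicate 2. Tg2 replicate 3, which stood apart within its group, was the lowest Tg2 library for each of these 5 genes. PLOD2 was at 82.59 CPM there, inside the NC range of 73.74 to 85.06 CPM. Without Tg2 replicate 3 or NC replicate 2, NDRG1 and ANKRD37 were called in Tg2 as well. ADM in Tg1 was not called without NC replicate 1, NC replicate 3, Tg1 replicate 2 or Tg1 replicate 3. The list had medians of 0.11, 0.09, 0.29 and 0.13 in WT, Tg1, Tg2 and Tg3. HIF1A, which encodes the oxygen-regulated factor itself, had log2 fold changes of 0.01, 0.03, 0.14 and 0.11. The mRNA level of that factor is not a measure of its protein.

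Markers of the proximal tubule were counted against NC as well. In Tg2, 6 of the 15 tubule markers fell (SLC34A1, LRP2, VIL1, CUBN, SLC5A2 and ANPEP) beside 3.70% of all genes, and 1, CDH1, rose. The log2 fold changes of the 6 were between -0.46 for SLC34A1, a phosphate transporter, and -0.29 for ANPEP, a brush border peptidase. For each of the 6, Tg2 replicate 3, which stood apart within its group, was the Tg2 library nearest to the NC mean. LRP2, for example, was at 272.2 CPM there and at 220.3 and 213.9 CPM in Tg2 replicates 1 and 2. Without NC replicate 3 or Tg2 replicate 2, no gene was a DEG between Tg2 and NC in edgeR, these 7 included, and without NC replicate 1 or Tg2 replicate 1 only 24 and 48 genes were. In WT, Tg1 and Tg3, 0 of the 15 were DEGs in edgeR, with 2, 6 and 9 at an unadjusted p-value under 0.05 (10 in Tg2), beside 524, 2304 and 2089 of all 11553 genes (4069 in Tg2). The number of the 15 that were below NC was 9, 9, 10 and 10 in WT, Tg1, Tg2 and Tg3, and the median of the 15 was -0.03 (WT), -0.09 (Tg1), -0.20 (Tg2) and -0.20 (Tg3). Of the collecting duct markers tested, SCNN1G went from 6.43 CPM in NC to 14.6 CPM in Tg2, a log2 fold change of 1.18. It did not pass (adjusted p = 0.0606 from edgeR), and AQP3 was at 0.01 in Tg2. Whether these markers have a part in the level of BHLHE40 or CLOCK was not tested.

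The genes most like BHLHE40 were found by the Pearson correlation of log2 CPM over the 15 libraries, which share their plasmids, wells and normalization. The 5 highest were MAFF (r = 0.98), RND3 (r = 0.97), DUSP5 (r = 0.97), HBEGF (r = 0.95) and PLAU (r = 0.95). MAFF is a small MAF transcription factor, RND3 an atypical small GTPase and DUSP5 a nuclear phosphatase of ERK. HBEGF is a ligand of the EGF receptor and PLAU the urokinase plasminogen activator. The Spearman correlation of the 5 was between 0.93 and 0.97.

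MAFF had the largest log2 fold changes of the 5. Its level was 16.48, 23.08 and 20.86 CPM in NC and 37.62, 25.98 and 37.62 CPM in WT, and like BHLHE40 it was lowest in WT replicate 2, Tg1 replicate 1 and Tg3 replicate 2 within their groups. The spread between wells of the same plasmid is part of the correlation by which the 5 genes were picked, so their likeness within a plasmid is a description. With the group means removed, the correlation with BHLHE40 was 0.96 for MAFF, 0.93 for RND3, 0.94 for DUSP5, 0.90 for HBEGF and 0.86 for PLAU. The log2 fold changes of MAFF against NC were 0.74, 0.65, 0.67 and 0.35 in WT, Tg1, Tg2 and Tg3, and those of DUSP5 0.53, 0.37, 0.52 and 0.24. The genes least like BHLHE40 were CPSF6 (r = -0.85), RBM26 (r = -0.80) and RPS6KA3 (r = -0.80).

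For CLOCK the highest correlations belonged to HERC2 (r = 0.92), ZFP91, HSPA4L and EPG5 (r = 0.90 each) and WAC (r = 0.89). HERC2 and ZFP91 code for ubiquitin ligases, and EPG5 for a protein of autophagy. The gene named HSPA4L here (ENSSSCG00000009077) is called PLK4 in the supplementary tables of the study, so its name is uncertain. With the group means removed, these correlations were weaker than for BHLHE40. They were 0.59 for HERC2, 0.47 for ZFP91, 0.46 for HSPA4L, 0.73 for EPG5 and 0.26 for WAC. The fitted variation between wells was 3.72% for CLOCK and 7.85% for BHLHE40, where counting alone would give 2.21% and 1.71%. Whether this has a part in the weaker correlations was not tested. HERC2 ran from 105.3 to 108.1 CPM in NC and from 88.2 to 93.2 CPM in Tg1. The lowest correlations were those of HSPA5 (r = -0.91), the main chaperone of the endoplasmic reticulum, FLOT1 (r = -0.90) and ARFGAP2 (r = -0.89). HSPA5 had log2 fold changes against NC of 0.15, 0.25, 0.17 and 0.07, with the highest value in Tg1, where CLOCK was lowest.

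**Figure D4:**
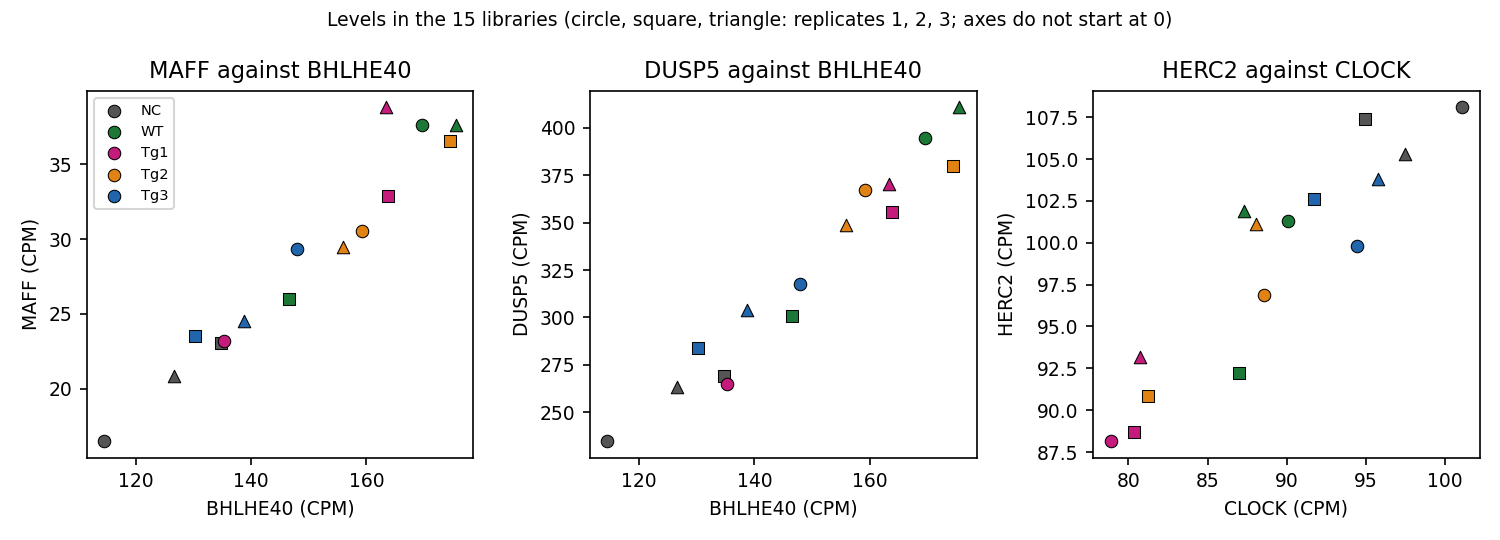
Levels in CPM of MAFF and DUSP5 plotted against BHLHE40, and of HERC2 against CLOCK, with 1 point for each of the 15 libraries, colours for plasmids and symbols for replicates. The points of MAFF and DUSP5 follow BHLHE40 also within a plasmid, for example in Tg1, where replicate 1 is low for all 3 genes.

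BHLHE40 and CLOCK themselves had a correlation of -0.64 over the 15 libraries (Spearman correlation -0.61) and of -0.19 once the group means were removed. Among the other 36 clock genes, the correlation with BHLHE40 ran from -0.55 for PRKAA2 to 0.86 for NFIL3, and the next highest was 0.42 for KLF10. An absolute correlation above 0.5 with BHLHE40 was found for 4 of the 36, or 11.1%, beside 5.44% of all genes. With CLOCK it ran from -0.65 for NFIL3 to 0.79 for GSK3B, a kinase that acts on clock proteins, and again 4 of the 36 exceeded 0.5, beside 17.1% of all genes. With the group means removed, the range was -0.86 (CSNK1A1) to 0.78 (NFIL3) for BHLHE40 and -0.52 (PRKAA1) to 0.61 (DBP) for CLOCK. The share of the 36 above 0.5 was then 11.1% for BHLHE40, beside 7.94% of all genes. For CLOCK it was 5.56%, beside 10.9% of all genes.

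The gene neighbours were read from the RefSeq annotation of Sscrofa11.1. CLOCK overlaps TMEM165, a Golgi ion transporter, in that annotation. This is an overlap of the gene spans. Whether the 2 genes share sequence in the cDNA set the authors counted against was not checked. The library protocol does not state strand, so reads from any such shared sequence could not be told apart. TMEM165 had log2 fold changes against NC of 0.00, 0.14, 0.25 and 0.13 in WT, Tg1, Tg2 and Tg3. In Tg2 it passed the adjusted p-value (adjusted p = 0.0219 from edgeR) with all libraries above NC, and missed the fold-change threshold. It was a DEG there without NC replicate 2 (0.28) and without Tg2 replicate 3 (0.30). Its correlation with CLOCK was -0.45. BHLHE40 overlaps an uncharacterized lncRNA and neighbours ITPR1. ITPR1, an intracellular calcium channel, had log2 fold changes of -0.08, -0.19, 0.06 and 0.10 and was not a DEG against NC.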

How the data were processed

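The 2 genes, the gene lists and the tests were chosen with earlier results of these data known. The authors quantified reads with Salmon against the pig cDNA set of Ensembl release 98 and deposited one count per Ensembl gene and library, in whole numbers and not normalized. How transcripts were summed to genes is not given in the sources used here. The authors tested DEGs with DESeq2.

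Of the 16660 genes, those averaging at least 2 CPM across the 15 libraries were tested (11553 genes, holding 99.8% of counts). All 15 libraries were fitted in one model of 5 group means in edgeR 4.0.16 (R 4.3.3), after TMM normalization, by the quasi-likelihood test with Benjamini-Hochberg adjustment over all genes tested. DEGs were genes whose adjusted p-value did not exceed 0.05 and whose log2 fold change was at least 0.26 in either direction. Standard errors were derived from the log2 fold change and the F statistic of its test, and intervals are 95%. The fit was tested on simulated counts. Of the 16660 identifiers, 13373 had a symbol. Likeness was computed on log2 CPM with a prior count of 0.5. ARNTL and ARNTL2 were found under the names BMAL1 and BMAL2.

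The genes named were BHLHE40 and CLOCK, the core clock genes that passed the filter (not all are reported here), up to 4 DEGs of each other list by adjusted p-value, and the 5 most and 3 least alike genes. Relatives, neighbours, cell type markers and genes called under an alternative were also named, as were the fifth hypoxia gene and the highest correlations among clock genes, chosen after their values were seen. The alternatives were DESeq2 1.42.0, DESeq2 size factors, no filter, filterByExpr, a fit of the 2 groups compared, no fold-change threshold, a block for the replicate number, and the omission of each library in turn. Between WT and NC, deviations from the group means of same-numbered libraries correlated at 0.18, 0.50 and 0.41, and the block changed no call there.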

Additional observations from a re-analysis of the deposited data

Results flagged for a closer look

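CLOCK was at -0.23 on the log2 scale in Tg1 relative to Tg3, which passed the adjusted p-value of edgeR (adjusted p = 0.018) but not the fold-change threshold, so it was not a DEG. It was a DEG in 0 of the 15 fits that left out 1 library, with adjusted p-values up to 0.109. CLOCK was chosen with its low level in the same Tg1 libraries already known, so this test is not independent of the choice. The libraries did not overlap, as for 24.9% of all genes. Between Tg2 and WT, 8 other genes of the lists were DEGs in edgeR, namely 1 of 36 clock genes, 1 of 12 of the bHLH-PAS family, 2 of 10 hypoxia genes, 3 of 15 tubule markers and 1 of 2 leukocyte markers, beside 5.92% of all genes, and their libraries did not overlap, as for 24.4% of all genes. Each is given with all libraries and then without WT replicate 2. CIPC, the inhibitor that binds CLOCK, had a log2 fold change of -0.36 (then -0.42) in Tg2 relative to WT, and EPAS1, a hypoxia-inducible factor of the family of CLOCK, one of -0.28 (then -0.28). Among hypoxia-induced genes, ADM differed by 0.37 (then 0.43) and HK2 by 0.50 (then 0.61). Among tubule markers, VIL1 differed by -0.32 (then -0.37), SLC34A1 by -0.46 (then -0.53) and SLC5A2 by -0.31 (then -0.36). Among leukocyte markers, CD68, a lysosomal protein of macrophages, differed by 0.81 (then 0.97), at a mean level of 3.02 CPM in Tg2 and 1.73 CPM in WT. Each of the 8 was a DEG in 7 to 11 of the 15 fits that left out 1 library. The comparison of Tg2 with WT is also the one whose count of DEGs ranged most widely when a WT library was left out, from 0 without replicate 3 to 2421 without replicate 2.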

How the results depend on the processing

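BHLHE40 and CLOCK kept the direction of their difference from NC in each alternative run and in every fit that left out 1 library. Both genes were chosen with these differences already known, so the kept direction against NC is a description and is not read as evidence. No contrast of either gene between genotypes reversed apart from the near-zero ones named below. With no fold-change threshold, CLOCK passed between Tg1 and Tg3 at -0.23 and also in Tg2 against NC at -0.19. Replicate numbers were shared between plasmids. The mean correlation of deviations was 0.13 for same-numbered libraries and -0.07 for others, and only WT and NC had every pair above 0.1. With the replicate number as a block, no call of either gene changed, and the DEGs over all genes were 246 in Tg1, 1624 in Tg2 and 11 in Tg3 against NC, and 66 for Tg1, 1578 for Tg2 and 111 for Tg3 against WT. They were 162 for Tg1 against Tg2 and 108 for Tg1 against Tg3. The block also gave 1 clock DEG in Tg1 (NFIL3) and 6 in Tg2 (ARNTL2, NFIL3, USP2, NAMPT, CIPC and PRKAA2), 1 bHLH-Orange DEG in Tg2 (HES4) and 2 bHLH-PAS DEGs in Tg2. The cause of these shifts was not tested.

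DESeq2 gave 10 DEGs in WT, 243 in Tg1 and 45 in Tg3 against NC, 76 for Tg1, 1184 for Tg2 and 108 for Tg3 against WT, 156 for Tg1 against Tg2 and 137 for Tg1 against Tg3. It called 1 clock gene in Tg1, 2 bHLH-PAS genes in Tg2 and 1 hypoxia gene in Tg3. With no filter there were 2 DEGs for Tg1 against WT and 7 for Tg1 against Tg2, and with filterByExpr 7 for the latter. Fits of only the 2 groups compared, which hold fewer libraries, gave 0 DEGs for Tg1 and 0 for Tg2 against WT, 0 for Tg1 against Tg2, 32 for Tg1 against Tg3, and 1 bHLH-Orange and 1 bHLH-PAS gene in Tg2. They also lost the calls of PRKAA2, CIPC and PLOD2 against NC and of CIPC, EPAS1, ADM, HK2, VIL1, SLC34A1, SLC5A2 and CD68 against WT. With no fold-change threshold there were 264 DEGs in Tg1 and 1643 in Tg2 against NC, 1099 for Tg2 against WT and 118 for Tg1 against Tg3.

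Leaving out 1 library gave 0 to 25 DEGs in WT, 16 to 255 in Tg1 and 0 to 1878 in Tg2 against NC. It gave 0 to 852 for Tg1, 0 to 2421 for Tg2 and 0 to 1321 for Tg3 against WT, with the highest values without WT replicate 2, and 0 to 117 for Tg1 against Tg2 and 3 to 115 for Tg1 against Tg3. Clock DEGs ranged from 0 to 1 in Tg1 and from 0 to 7 in Tg2, hypoxia DEGs from 0 to 1 in Tg1 and from 0 to 7 in Tg2, bHLH-Orange DEGs from 0 to 1 and bHLH-PAS DEGs from 0 to 2 in Tg2. The BHLHE40 log2 fold change ranged from -0.08 to 0.05 for Tg2 against WT, from -0.31 to -0.18 for Tg3 against WT, from -0.16 to -0.00 for Tg1 against WT, from -0.13 to 0.00 for Tg1 against Tg2 and from 0.10 to 0.24 for Tg1 against Tg3, and that of CLOCK from -0.06 to 0.00 for Tg2 against WT. A fit that leaves out a library from one group assumes that the remaining 2 vary like the other groups. Small differences of BHLHE40 were within the spread between wells, which was larger than counting error for both genes.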
